A study of Rattus norvegicus with 35 samples.

Results

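Transcripts of 7 genes that act as feedback inhibitors or targets of ERK signalling were followed in rat converted hypoblast stem cells. The genes were Spry2, Spry4, Dusp4, Dusp6, Etv4, Etv5 and Phlda1, 7 of the 17198 genes and unmatched transcript records in the count table. They were chosen by name, each was matched to 1 RefSeq record, and each had reads. The series holds 34 single cells and 1 bulk population control, all obtained by culturing rat embryonic stem cells with fetal bovine serum, LIF, EGF and PDGF and collecting them on day 12 of differentiation. The RNA came from a microfluidic chip that isolates cells in chambers, and libraries were made by the Nextera XT protocol. The labels name neither the embryonic stem cell line nor a second culture, so the cells were treated as 1 sample, the bulk library as another, and no difference was tested. Cells are called by their labels, and each SD is a spread between cells, not between cultures.

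Growth factors such as PDGF, EGF and FGF bind receptor tyrosine kinases, which pass the signal through adaptors, Ras and the RAF and MEK kinases to ERK. Active ERK switches on genes that dampen the same pathway. In the mouse embryo, FGF and ERK signalling directs cells of the inner cell mass towards the hypoblast, or primitive endoderm, and PDGF receptor alpha, encoded by Pdgfra, is an early marker of that lineage.

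Sprouty proteins inhibit signalling from receptors to ERK, and the phosphatase encoded by Dusp6 removes the activating phosphates from ERK in the cytoplasm. The promoters of Spry2, the most widely detected of the 7 genes, of its relative Spry4, and of Dusp6, the gene detected in the next largest number of cells, are shown to give the regulatory sequence behind these transcripts. Each is 300 bases, from 250 before to 50 after the start site, on the gene's own strand, taken from RefSeq on the GRCr8 build, while the counts were made with rn5. Spry2 is at chr15:89111877-89112176, minus strand, Spry4 at chr18:30702497-30702796, minus strand and Dusp6 at chr7:35979354-35979653, plus strand. Capitals mark CCGGAA, a core that ETS transcription factors bind, or its reverse complement.
Spry2: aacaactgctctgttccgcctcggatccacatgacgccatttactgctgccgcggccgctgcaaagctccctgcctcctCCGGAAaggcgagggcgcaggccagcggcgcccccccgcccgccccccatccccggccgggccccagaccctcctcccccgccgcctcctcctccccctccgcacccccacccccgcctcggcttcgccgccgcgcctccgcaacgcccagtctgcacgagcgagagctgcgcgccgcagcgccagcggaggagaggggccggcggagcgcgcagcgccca
Spry4: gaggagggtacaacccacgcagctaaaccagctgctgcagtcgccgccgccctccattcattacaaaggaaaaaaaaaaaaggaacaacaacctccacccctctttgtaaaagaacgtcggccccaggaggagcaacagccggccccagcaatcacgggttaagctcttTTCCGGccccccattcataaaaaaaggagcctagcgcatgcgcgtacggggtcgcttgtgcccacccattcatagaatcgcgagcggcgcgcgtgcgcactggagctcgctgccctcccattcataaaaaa
Dusp6: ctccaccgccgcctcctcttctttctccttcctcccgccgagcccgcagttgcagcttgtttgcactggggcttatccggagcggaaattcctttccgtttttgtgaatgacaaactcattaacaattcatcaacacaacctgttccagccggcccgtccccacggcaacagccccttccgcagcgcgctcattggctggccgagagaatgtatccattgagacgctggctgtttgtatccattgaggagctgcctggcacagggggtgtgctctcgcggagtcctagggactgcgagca
Promoters of 5 of the 7 genes were in the sequence table. Spry2, Spry4 and Phlda1 each held 1 match, starting 171, 81 and 116 bases before the start site, and Dusp6 and Etv5 held none. Among all 27457 promoters, 15.8% held a match on either strand. The GC content of the 5 promoters ranged from 56% to 77%, against a median of 52.3% over all promoters. The longer ETS motif CCGGAAGT was in none of the 5 and in 4.01% of all promoters. Matches to the AP-1 motif TGANTCA and to the cAMP response element TGACGTCA were found in none of the 5, and in 7.33% and 1.91% of all promoters. A match describes letters in this window and shows no binding.

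Total reads ranged from 6288 (C94) to 503044 (C54) per cell, with a median of 266046, and were 47121 in the bulk library. Values are given as CPM, the count divided by the total of its own library and scaled to counts per 1000000 reads, and a gene was called detected at 5 CPM or more. A read was worth 1.99 CPM in C54 and 159 CPM in C94, so in the shallower cells 1 read was enough for detection, and a count of 0, which allows up to 3 reads, allowed up to 5.96 CPM in C54 and 477 CPM in C94. Between 349 and 5514 genes had a read, with a median of 4306. Of 10 hypoblast markers, 9 were detected in at least 17 cells, and a cell held a median of 8. Cells with at least 50000 reads and at least 3000 genes with a read numbered 22, and are called deep cells.

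Of the 7 genes, Spry2 alone was detected in at least 17 of 34 cells, a mark that 17% of all genes in the table reached. Dusp6 and Spry4 were detected in 10 and 8 cells, Phlda1 in 7, Etv5 in 5, and Etv4 and Dusp4 in 2 each. Their median, 7 cells, compares with 2 cells over the whole table and 9 cells over the 10693 genes with a read in any cell. Transcript lengths were not used here, so levels are compared between cells and not between genes.

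Spry2, which encodes the inhibitor Sprouty2, was detected in 18 of 34 cells (52.9%, exact 95% interval 35.1% to 70.2%). Its level was 75.9 ± 115 CPM (mean ± SD, 34 cells), with a lowest value of 0, a median of 7.85 and a highest value of 502 CPM. The highest value came from C09, on 32 reads in a library of 63704, and C43 (292 CPM, 88 reads), C27 (240 CPM) and C37 (235 CPM) followed. Spry2 was at 50 CPM or more in 14 cells and rested on at least 10 reads in 13. No cell held more than 19.5% of the summed Spry2 CPM. The mean without C09 was 62.9 CPM.

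Spry4, which encodes another Sprouty inhibitor, was detected in 8 cells (23.5%, interval 10.7% to 41.2%) at 13.8 ± 40.9 CPM. C72 held 183 CPM on 51 reads and C27 held 33.4 CPM on 10 reads. The value of C88, 157 CPM, came from 2 reads in a library of 12750. The other 5 detected cells (C46, C47, C39, C44 and C96) lay between 5.69 and 41.9 CPM on 1 to 4 reads. The mean without C72 was 8.69 CPM. Only C72 and C27 reached 10 reads of Spry4.

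Dusp6 was detected in 10 cells (29.4%, interval 15.1% to 47.5%) at 32.1 ± 73.9 CPM. Values at 50 CPM or more came from C30 (293 CPM, 8 reads), C27 (227 CPM, 68 reads), C44 (196 CPM, 64 reads), C80 (138 CPM, 48 reads), C14 (112 CPM, 4 reads) and C15 (83.9 CPM, 26 reads). The other 4 cells, C09, C46, C13 and C05, had 1 or 2 reads each. Dusp6 was therefore high in a few cells and had no read in 24, among them C43 and C37, which were high in Spry2. Dusp4, whose phosphatase acts on ERK and related kinases in the nucleus, was detected in C30 (73.3 CPM, 2 reads) and C46 (62.9 CPM, 6 reads) and had no read in the other 32 cells.

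Etv4 and Etv5 encode ETS transcription factors of the PEA3 group, which are induced by FGF and ERK signalling. Etv5 was detected in 5 cells (14.7%, interval 4.95% to 31.1%) at 14.2 ± 56.5 CPM. C54, the deepest cell, held 316 CPM on 159 reads, which was 65.5% of the summed CPM, and the mean without it was 5.05 CPM. C27 (103 CPM, 31 reads) and C72 (35.8 CPM, 10 reads) came next. Etv4 was detected in C46 (94.4 CPM, 9 reads) and C17 (92.3 CPM, 6 reads) alone (5.88%, interval 0.72% to 19.7%). C17 was the 1 cell in which both ETS genes were detected, with Etv5 on 1 read (15.4 CPM).

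Phlda1, which encodes a pleckstrin homology-like domain protein and is induced by growth factors, was detected in 7 cells (20.6%, interval 8.70% to 37.9%) at 25.5 ± 98.6 CPM. C14 held 561 CPM on 20 reads in a library of 35681, or 64.7% of the summed CPM, and the mean without it was 9.28 CPM. The other 6 cells ranged from 7.91 CPM (C23, 2 reads) to 146 CPM (C45, 9 reads).

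**Figure D1:**
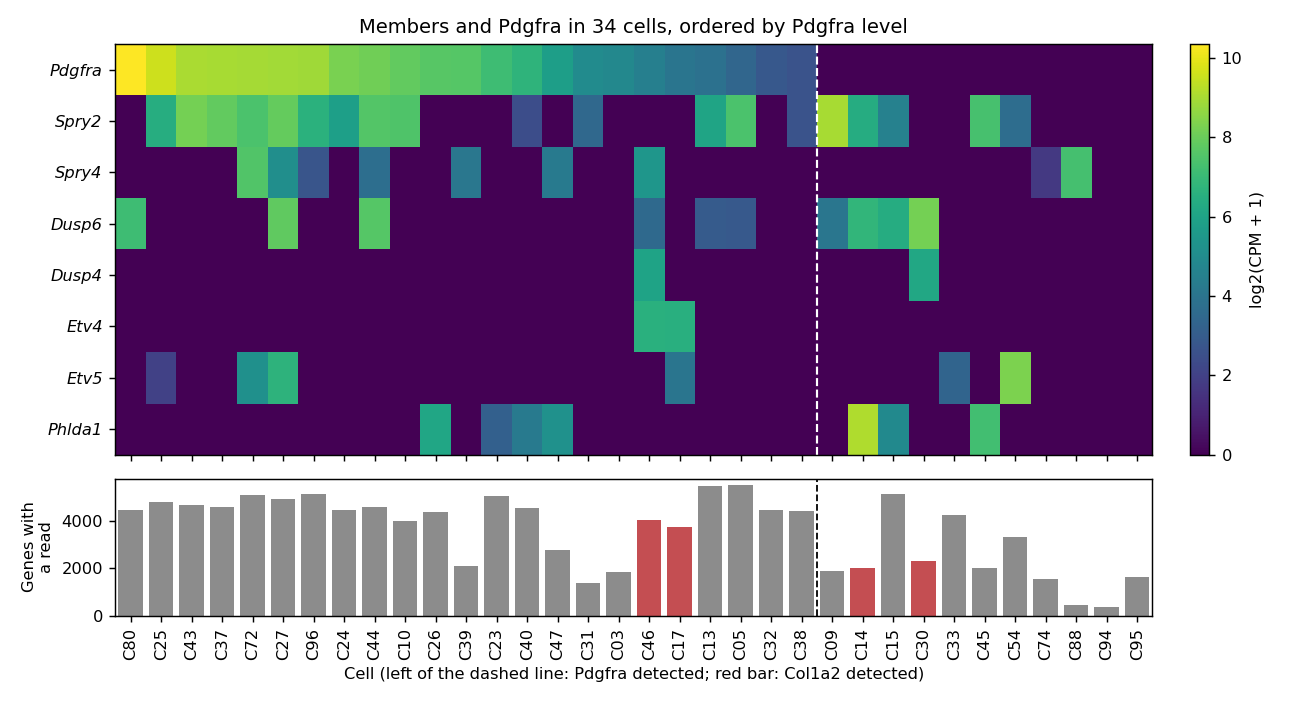
Upper panel, log2(CPM + 1) of Pdgfra and the 7 genes (rows) in each of 34 cells (columns), ordered from the highest to the lowest Pdgfra level, with the dashed line after the 23 cells in which Pdgfra was detected. Lower panel, genes with a read per cell, with the 4 cells in which Col1a2 was detected in red. Spry2 fills 9 of the first 10 columns, while Etv4 and Dusp4 have values only in red columns.

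The members were spread thinly over the cells. A cell held a median of 1 of the 7, 5 cells held none, 14 held 1, 9 held 2, 4 held 3 and 2 held 4. The 2 cells with 4 members were C27, with Spry2, Spry4, Dusp6 and Etv5 summing to 604 CPM over the members, and C46, with Spry4, Dusp4, Dusp6 and Etv4. The cells with none were C03, C32, C74, C94 and C95. Of these, C32 had 4465 genes with a read and the other 4 had between 349 and 1830.

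Of the 21 pairs of members, 15 were found together in at least 1 cell. In all, 10 were found in more cells than the product of their shares gives and 11 in fewer. The same count over all gene pairs was not computed, so the 10 are not read as a result. Pairs among Spry4, Dusp4 and Etv4 were above expectation through C46 alone. These expected numbers ignore that cells differ in depth. Spry2 and Dusp6 shared 7 cells, against 5.29 expected, so 7 of the 10 cells with Dusp6 and 7 of the 18 with Spry2 held both. Spry2 and Spry4 shared 4 cells, against 4.24 expected, and Spry2 and Phlda1 shared 3, against 3.71. Neither Etv4 nor Dusp4, detected in 2 cells each, was found in a cell with Spry2, where 1.06 cells were expected for each. How many other genes detected in 2 cells also missed the Spry2 cells was not computed, so this is not read as a result. Leaving out the 4 Col1a2 cells, a step added once the values had been seen, left no cell with Etv4 or Dusp4 and 6 pairs above expectation. Spry2 and Spry4 then lay just above it (4 cells, against 3.97 expected), as did Dusp6 and Etv5 (1 cell, against 0.933).

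Pdgfra was detected in 23 cells and not in 11, and was set beside each member. Spry2 was detected in 13 of 23 cells with Pdgfra (56.5%, interval 34.5% to 76.8%) and in 5 of 11 without it (45.5%, interval 16.7% to 76.6%). Spry4 was detected in 7 of 23 cells with Pdgfra (30.4%) and in 1 of 11 without it (9.09%, 2 reads in C88), and Etv4 in 2 of 23 and 0 of 11, where 0 cells allow a share of up to 28.5%. Dusp6 was detected in 6 of 23 cells with Pdgfra (26.1%) and in 4 of 11 without it (36.4%), Phlda1 in 4 and 3, Etv5 in 3 and 2, and Dusp4 in 1 and 1. The intervals overlapped for every member. They cover counting of cells of 1 sample only, so their overlap is no test of a difference.

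Cells with Pdgfra held more genes with a read (median 4478) than cells without it (median 1993), and more reads (median 279111 against 63704). Of 6706 genes detected in 5 to 29 cells, 92.2% had the larger detected share in cells with Pdgfra, with a median difference of 25.7 percentage points. Among the 5 members in that range, 2 (Spry2 and Spry4) had the larger share with Pdgfra and 3 (Dusp6, Etv5 and Phlda1) the smaller, with a median of −5.14 points. The sign of 3 of these 5 turned under other settings. Spry2, 11.1 points as reported, ranged from −3.51 points in deep cells to 33.7 points with detection of both genes at 50 CPM. In deep cells Spry2 was at 50 CPM or more in 11 of 19 cells with Pdgfra and in 0 of 3 without it. At 5 CPM or more the same deep cells gave 12 of 19 and 2 of 3. The share over all genes was not computed for the 50 CPM cut in deep cells, so that count is not read as a result. Dusp6, at −10.3 points, was at 4.21 points with detection at 50 CPM, 2.87 after thinning and 1.59 without the Col1a2 cells. Etv5, at −5.14 points, ranged from −50.9 in deep cells to 12.0 after thinning. Spry4 stayed above 0 (1.40 to 26.3 points) and Phlda1 below 0 (−17.5 to −3.17 points) under every setting run. Over all 7 members the median was −4.74 points. It was 1.40 points with detection at 50 CPM and 5.74 points after thinning each cell to 50000 reads, so its sign changed with the setting. In deep cells, of which 19 had Pdgfra and 3 did not, it was −1.75 points.

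**Figure D2:**
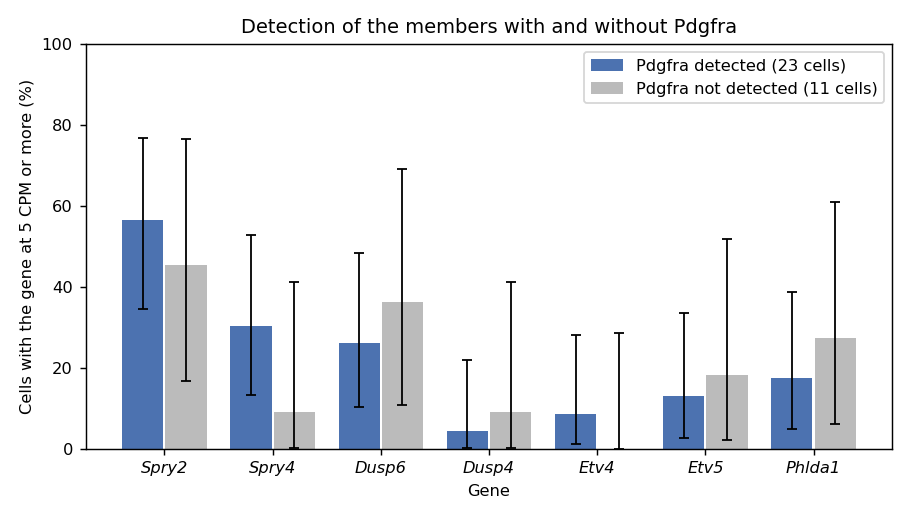
Percentage of cells in which each of the 7 genes was detected at 5 CPM or more, in 23 cells with Pdgfra (blue) and 11 cells without it (grey), with exact 95% intervals that cover counting of cells only. Spry2 has the tallest pair of bars, 56.5% with Pdgfra and 45.5% without, and the intervals overlap for every gene.

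In the order of Pdgfra levels, the 10 highest cells held between 233 CPM (C10) and 1301 CPM (C80), and Spry2 was detected in 9 of them, at 55.7 to 292 CPM. The exception was C80, the cell with the most Pdgfra, which had 0 Spry2 reads among 347297 and 138 CPM of Dusp6. In the other 13 cells with Pdgfra, Spry2 was detected in 4. The choice of 10 cells was made after the values were seen, and it cuts a continuous range. All 10 were deep cells, with between 3976 and 5130 genes with a read, whereas 9 of the other 13 were deep. Of the 252 genes detected in exactly 18 cells, 16.3% were found in at least 9 of these 10 cells, with a median of 7.

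The other members were detected in fewer cells than Spry2. Among the 10 cells highest in Pdgfra were 4 of the 8 cells with Spry4, 3 of the 10 with Dusp6 and 2 of the 5 with Etv5. None of the 10 held Etv4, Dusp4 or Phlda1, which were detected in 2, 2 and 7 cells. Shares over all genes detected in as many cells were not computed for these members, so their counts are not read against that of Spry2. Phlda1 was detected in 4 of the other 13 cells with Pdgfra and in 3 of the 11 without. High Spry2 also occurred in cells with no Pdgfra read, C09 (502 CPM, 32 reads) and C45 (162 CPM, 10 reads). C14 held 84.1 CPM on 3 reads. Each was a cell with fewer than 3000 genes with a read. There 0 Pdgfra reads allowed up to 47.1 CPM in C09, 48.6 CPM in C45 and 84.1 CPM in C14. In the 3 deep cells without Pdgfra, Spry2 reached at most 22.6 CPM.

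Spearman's rho between Spry2 and Pdgfra was 0.33 over 34 cells and 0.46 over the 22 deep cells. For the other members it lay between −0.16 (Dusp4) and 0.19 (Spry4) over 34 cells. These cells share 1 source and differ in depth, and rho with the number of genes with a read was 0.45 for Spry2 and 0.55 for Pdgfra. Of 2923 genes detected in at least 17 cells, 411 had a higher rho with Spry2 than Pdgfra had, and the median rho was 0.16. That rank of 412 was 107 in deep cells, 175 of 2133 genes after thinning, 743 with Pearson's r and 695 of 5012 genes detected in at least 10 cells. The 5 genes with the most similar pattern were Rrn3, which encodes an initiation factor of RNA polymerase I (rho 0.63), Anxa3, an annexin gene (0.63), Uba1, which encodes the ubiquitin-activating enzyme (0.58), Mfsd5 (0.58) and Ubxn1 (0.58). In the deep cells rho was 0.38 for Rrn3 and 0.63 for Anxa3, and none of the 5 stayed among the 5 highest.

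**Figure D3:**
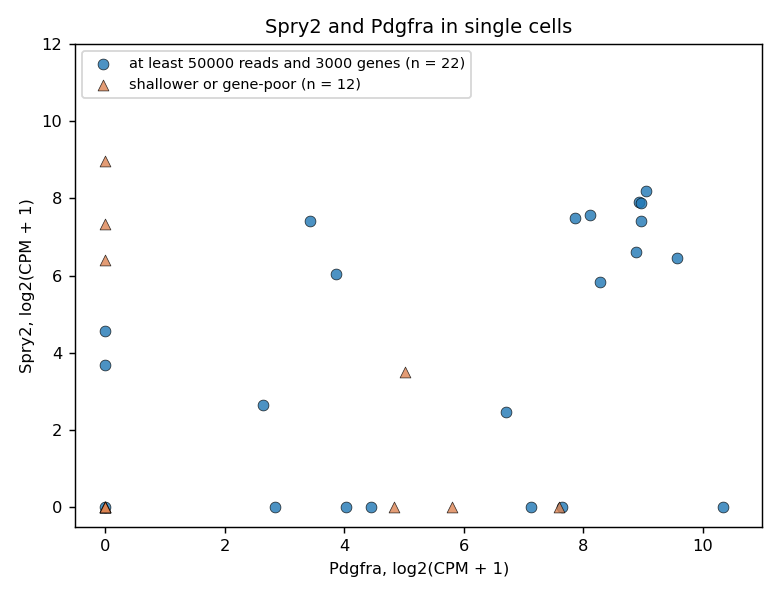
Spry2 against Pdgfra, both as log2(CPM + 1), in 34 cells. Circles are the 22 deep cells and triangles the 12 shallower or gene-poor cells. Of the 10 cells highest in Pdgfra, 9 lie together at the upper right and C80 lies on the horizontal axis at 0 Spry2. At 0 Pdgfra lie 3 triangles with Spry2 detected.

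Etv4 and Dusp4 were found only in cells that also held Col1a2, a fibrillar collagen gene on the fibroblast marker list. Col1a2 was detected in C14, C17, C30 and C46, and was at 0 in the other 30 cells. The summed level of the 3 fibroblast markers (Col1a1, Col1a2 and Col3a1) ranged from 252 to 2971 CPM in these 4, against 0 to 408 CPM in the others. The sum contains Col1a2, which picked the cells, so this contrast is partly built in. C46 held only 1 of the 3 markers, Col1a2. The 408 CPM of C09, outside the 4, exceeded the sums of C46 (252 CPM) and C17 (338 CPM). Etv4 was in C17 and C46, and Dusp4 in C30 and C46. Of the 761 genes detected in exactly 2 cells, 8.28% had both cells among these 4. Dusp6 was detected in 3 of the 4 cells with Col1a2 and 7 of the 30 without, Phlda1 in 1 and 6, and Spry2 in 1 and 17. In the cells with Col1a2, Dusp6 rested on 8 reads in C30, 4 in C14 and 1 in C46. Shares over all genes detected in as many cells as Dusp6, Phlda1 or Spry2 were not computed, so these counts are not read as a result. The 4 cells held 482 to 4708 CPM over the 10 hypoblast markers, against 2169 to 21569 CPM in the other 30 cells, and their libraries held 27284 to 95359 reads. The part of other cell types in these values was not tested.

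In the bulk library, Spry2, Dusp6 and Etv5 had 2 reads each and the other 4 members none, which allows up to 63.7 CPM. The mean of the cells over the bulk level was 1.79 for Spry2 (75.9 CPM in cells and 42.4 CPM in bulk, interval 0.495 to 14.8), 0.755 for Dusp6 (32.1 and 42.4 CPM, interval 0.209 to 6.24) and 0.335 for Etv5 (14.2 and 42.4 CPM, interval 0.0926 to 2.76). The intervals are exact Poisson 95% intervals for the bulk reads with the cells' mean held fixed, and each includes 1. The means of Spry4, Dusp4, Etv4 and Phlda1 lay under the bulk floor, so no fold is given. On the log2(CPM + 1) scale these 4 passed 2-fold in favour of the cells, as 53.4% of 9023 genes did. Without a bulk read, any mean of at least 1 CPM in cells passes, so that call was fixed beforehand and shows no difference. Of the 9023 genes, 4282 had no bulk read. Etv5 passed 2-fold in favour of the bulk, as 21.9% did. Among the 4741 genes with a bulk read, 11.2% were at least 2-fold higher in cells and 41.7% at least 2-fold lower. With so few bulk reads, differences of this size were not detectable for any member, and in a bulk level fewer cells with a transcript and less RNA per cell cannot be told apart.

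Other genes of the pathway are given beside all genes in the table, of which 17% were detected in at least 17 cells. Among 12 receptor genes, Pdgfra (182 ± 287 CPM, 23 cells) and Kit, the stem cell factor receptor (87.8 ± 128 CPM, 17 cells), were detected in at least 17 cells. Among 13 measured ligand genes none was, and 7 were detected in no cell, as were 40.3% of all genes in the table. The ligands named for their mean CPM were Fgf10 (47.1 ± 201 CPM, 16 cells) and Hbegf, an EGF receptor ligand (11 cells, up to 292 CPM in C47). C88 held 73.4% of the summed Fgf10 CPM, and the mean without it was 12.9 CPM. Naming them does not rank the genes by level. PDGF and EGF were supplied in the medium.

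Transcripts of the cascade itself were detected in 6 to 25 cells. In at least 17 cells, a mark that 17% of all genes reached, were 9 of the 18 measured genes. The adaptor genes Gab1 (25 cells, 288 ± 731 CPM, and 167 CPM without C74) and Grb2 (21 cells) and the phosphatase gene Ptpn11 (24 cells), which relays receptor signals to Ras, were among them. Nras and the RAF kinase gene Araf were detected in 17 and 19 cells. Map2k1, which encodes a MEK kinase, was detected in 22 cells, and so was Rps6ka1, an ERK-activated kinase gene. The mean of Rps6ka1 was 207 CPM, and 131 CPM without C45.

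Among 15 other measured negative regulators, the phosphatase genes Dusp10 (20 cells, 109 ± 354 CPM) and Dusp9 (17 cells, 117 ± 443 CPM) were detected in at least 17 cells and 2 genes in none. A single cell held most of the signal of both, C95 with 56.0% for Dusp10 and C45 with 65.1% for Dusp9. The median over this list was 9 cells, and 2 of its 15 genes reached 17 cells, against 17% of all genes. Among 18 other targets and ETS genes the median was 7.5 cells. The ETS genes Elk4 (23 cells, 136 ± 196 CPM) and Ets1 (17 cells) and the AP-1 genes Jun (20 cells) and Fos (18 cells) reached 17 cells. These were 4 of the 18, against 17% of all genes. Myc was detected in 11 cells, with 88.6% of its summed CPM in C94, and Ccnd1, the cyclin D1 gene, in 12.

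**Figure D4:**
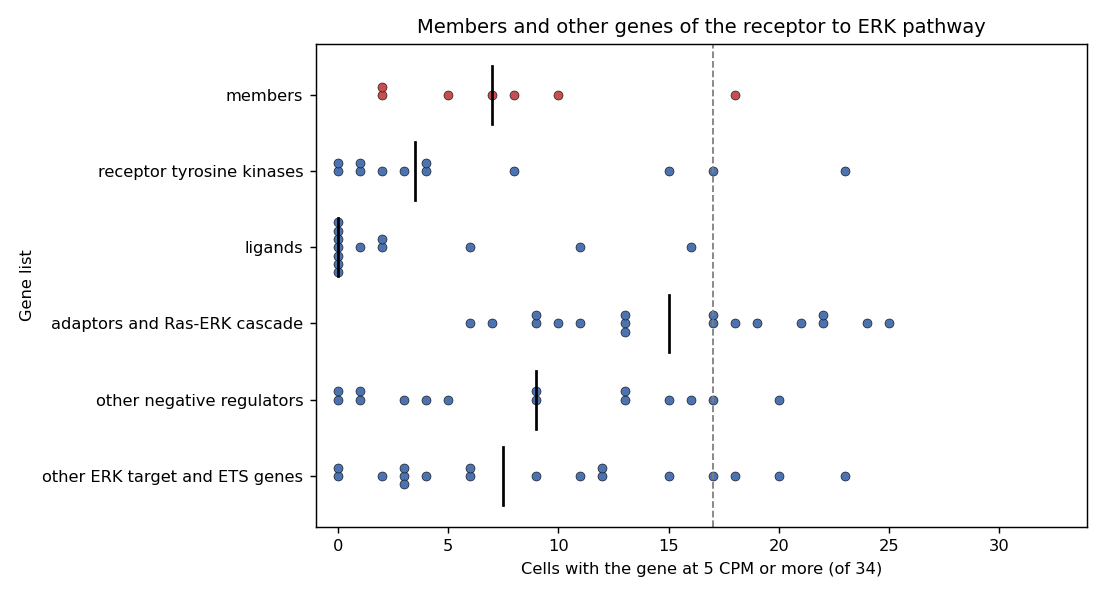
Number of cells, of 34, in which each gene was detected at 5 CPM or more, with the 7 members in red and 5 lists of other pathway genes in blue. Each point is a gene, black bars are list medians, and the dashed line marks 17 cells. Spry2 is the 1 member past the line, and 9 of 18 cascade genes lie at or past it. Over all genes in the table, not plotted, that share is 17%.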

How the data were processed

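The values are whole-number read counts per RefSeq transcript record, deposited by the authors as 1 table with a column for each of the 34 cells and the bulk library. TopHat2 and the rn5 genome build are named in the submitters' processing notes. How reads were counted, on which annotation, with which strand setting, and with what rule for several matches, is not given in the sources used here. Even counts made up 59.8% to 72.6% of nonzero counts in cells and 79.9% in bulk, so reads are not independent molecules. Intervals and floors cover counting error only and are too narrow for such reads. Of 17201 records, 16209 were matched by accession to a symbol of the GRCr8 RefSeq gene table and summed per symbol. The other 992, with 4.14% of reads, kept their identifiers and stayed in the totals.

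Counts were scaled to CPM by column totals. Shares of cells have exact Clopper-Pearson 95% intervals. No cell was removed, doublets were not called, and none of the 561 pairs of cells held identical counts. Thinning drew 50000 reads once per cell, leaving out 4 cells. TMM sizes came from edgeR 4.0.16, and other steps used Python 3.11.15, pandas 2.3.3 and scipy 1.17.1. The ranking and ratio steps were run on simulated Poisson counts with a planted change, for genes above the median level. Such counts lack the excess of even values seen here, so that run gives no assurance for members with few reads. The members, the lists, the detection threshold and the rules were chosen with earlier results of these data known. Named were all members, Pdgfra, each listed pathway gene in at least 17 cells, the 2 with the highest mean CPM per list, and the 5 genes most like Spry2. Of the listed genes, 10 were not in the table by that match and are not analysed here. Some listed genes that meet this rule are not reported here. The cell type markers were fixed as separate lists. Alternatives were detection at 1 read or 50 CPM, deep cells, thinning, totals without Rn45s, TMM sizes, other pseudocounts and filters, other measures of likeness, the median over cells, and leaving out each member's highest cell.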

Additional observations from a re-analysis of the deposited data

How the results depend on the processing

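The number of members detected in at least 17 cells, 1 as reported, was 0 with detection at 50 CPM (Spry2 in 14 cells) and 0 after thinning to 50000 reads (Spry2 in 12 of 30 cells). It was 1 under the other settings run, with the mark at 1 in 2 of the cells kept. The pairs found together more than expected, 10 as reported, were 6 without the Col1a2 cells and 8 to 11 otherwise. The members at least 2-fold higher in cells than in bulk, 4 as reported, were 0 with the median over cells, 2 with a pseudocount of 10 CPM and 2 without the Col1a2 cells. None of the 4 reported had a bulk read, so their call came from the pseudocount and shows no difference. Members at least 2-fold lower, 1 as reported, were 3 with the median over cells and 0 in deep cells. Of the 5 genes most like Spry2, 0 were among the 5 highest in deep cells, 3 with TMM sizes, 0 after thinning, 2 over genes detected in at least 10 cells and 1 without the Col1a2 cells, so those names rest on the setting. The Col1a2 alternative was added after the values were seen. Of the 79 recomputed values, 62 moved by less than the spread, by at most 1.5 times for a count or by less than 1 for a log2 ratio, and 17 by more. The cause was not tested. No paired analysis was possible because the bulk group holds 1 library. Depth limits most members: Spry4, Dusp4, Etv4 and Phlda1 each had 77 or fewer reads over all cells, and 1 read in the bulk library was worth 21.2 CPM.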

Other observations

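Early response genes on the target list were not detected alike. Besides Fos and Jun, in 18 and 20 cells, Ier3 was detected in 9 cells, Egr2 in 4, Ier2, Fosl1 and Junb in 3 each, Egr1 in 2 and Egr3 in none. Among receptors below the 17-cell mark, the FGF receptor genes Fgfr3 and Fgfr1 were detected in 15 cells (55.6 ± 111 CPM) and 8 cells, and Fgfr2 and Fgfr4 in 2 and 1. Egfr was detected in 1 cell, C30, on 1 read in a library of 27284. Erbb3 had 1 read in the cells and 6 reads in bulk (127 CPM). Of the relatives of Spry2 in the table, Spry3 had no read and Spred1 and Spred2 were detected in 3 cells and 1. These genes were chosen for mention after their values were seen.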
